A study of Homo sapiens with 24 samples.

Results

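The 4 fibroblast growth factor (FGF) receptor genes FGFR1, FGFR2, FGFR3 and FGFR4 and 6 genes that restrain signalling downstream of them, SPRY1, SPRY2, SPRY4, SPRED1, SPRED2 and DUSP6, were followed in HSJD-DIPG-007 cells given vehicle or the PRMT5 inhibitor LLY-283. They were taken by gene name and are 10 of the 58676 genes counted in the series. HSJD-DIPG-007 is 1 established, patient-derived diffuse midline glioma (DMG) line, so the data cannot speak for other lines. All libraries share its genotype, which the labels give as H3F3A K27M, ACVR1 R206H and PIK3CA MIS, where MIS stands for missense in the study's notation. PRMT5 is an enzyme that places symmetric dimethyl groups on arginines, and LLY-283 occupies its pocket for the methyl donor. Cells were seeded as spheroids in medium that contained basic FGF together with EGF, PDGF-AA and PDGF-BB, and received vehicle or LLY-283 the next day at a dose that inhibits growth by 40%. The labels describe a single dose, whereas the methods of the study describe new medium with a second dose after 5 days. RNA was sequenced in 24 libraries, 12 of each treatment group, with triplicates of each group (n = 3) on days 0 and 5, n = 2 on day 7 and n = 1 on days 1, 2, 3 and 10. Repeats within a group are described as technical, so p-values measure only the spread between such repeats. The comparison over days 1 to 3 had no repeats, and its p-values measure how the group difference varied between days.

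FGFs bind their receptors together with heparan sulphate, and the activated receptor kinases signal through the adaptor FRS2 and through GRB2 and SOS to RAS, RAF, MEK and the kinase ERK. ERK activity raises transcription of its own inhibitors, among them the Sprouty proteins (SPRY), the Spred proteins, which act on RAS through neurofibromin, and DUSP6, a phosphatase that inactivates ERK in the cytoplasm. Other receptor tyrosine kinases, such as those for EGF and PDGF, feed into the same cascade, which promotes division of glial precursor cells and of many gliomas.

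Levels are given as CPM, counts scaled to a fixed library total after the TMM method had adjusted the 24 libraries to each other, and as CPM per kilobase of the Ensembl canonical transcript where genes are compared with each other. Library totals lay between 13835205 and 23190369 counts. FGFR1 had 1326 to 2719 counts per library and DUSP6 4661 to 9098, whereas FGFR2 had 58 to 167, FGFR3 24 to 148 and FGFR4 32 to 74, so that the last 3 were measured with much larger counting error. In the fits, a gene was called changed at an adjusted p under 0.01 by the quasi-likelihood test of edgeR with Benjamini-Hochberg adjustment over all genes tested, and all 10 genes passed the filter on low counts in every comparison. The libraries labelled vehicle and LLY-283 day 7 repeat 2 resembled the other treatment group over all genes, so day 7 values are given by label, with and without them. Glioma precursor markers OLIG2, SOX2, PDGFRA, NES and CSPG4 were abundant in every library, while SOX10 did not exceed 0.603 CPM and GPR17 did not exceed 0.429 CPM. In bulk RNA, fewer cells that express a gene cannot be told apart from less of its RNA per cell.

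FGFR1 was the main FGF receptor transcript. At day 0, before any treatment time had passed, FGFR1 stood at 20.3 ± 0.213 CPM per kilobase (SD, n = 6 libraries of both groups), FGFR2 at 1.41 ± 0.111, FGFR4 at 0.816 ± 0.137 and FGFR3 at 0.467 ± 0.0886. No pair of neighbours in that order overlapped at day 0, and FGFR1 made up 82.1% to 89.0% of the summed CPM per kilobase of the 4 receptors across the 24 libraries. The feedback genes covered a narrower range. SPRY2 led with 94.2 ± 3.57 CPM per kilobase and DUSP6 followed with 72.0 ± 0.888. SPRY1 at 39.2 ± 1.82 and SPRY4 at 37.2 ± 1.77 overlapped, as did SPRED1 at 17.8 ± 0.537 and SPRED2 at 17.4 ± 0.484. Among 14402 protein-coding genes that passed the filter, ranked by median CPM per kilobase, SPRY2 and DUSP6 lay at percentiles 96.1 and 95.7, FGFR1 at 74.9 and FGFR2, FGFR3 and FGFR4 between 20.6 and 23.9.

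DUSP6, SPRY1, SPRY2 and SPRY4 were higher at every later day than at day 0, in both treatment groups. DUSP6 (ENSG00000139318, chr12:89347235-89352501, minus strand, GRCh38) lay between 257 and 265 CPM in the 6 libraries of day 0 and between 335 and 475 CPM in the 18 later ones. SPRY1 (ENSG00000164056, chr4:123396795-123403760, plus strand) went from 94.7 to 106 CPM at day 0 to between 140.0 and 174 CPM later. The lowest later library was thus above the highest day 0 library for both genes. SPRY4 (ENSG00000187678, chr5:142310427-142326455, minus strand) moved from a range of 172 to 193 CPM to one of 213 to 264 CPM. SPRY2 (ENSG00000136158, chr13:80335976-80341126, minus strand), whose product like those of the other SPRY genes blocks RAS activation below receptor kinases, moved from 201 to 225 CPM to 229 to 280 CPM, without overlap but with the smallest gap of the 4. FGFR3 was the fifth gene with all 18 later libraries above all 6 of day 0, a pattern found in 6.74% of 20876 genes, while 4.39% had all later libraries below.

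**Figure D1:**
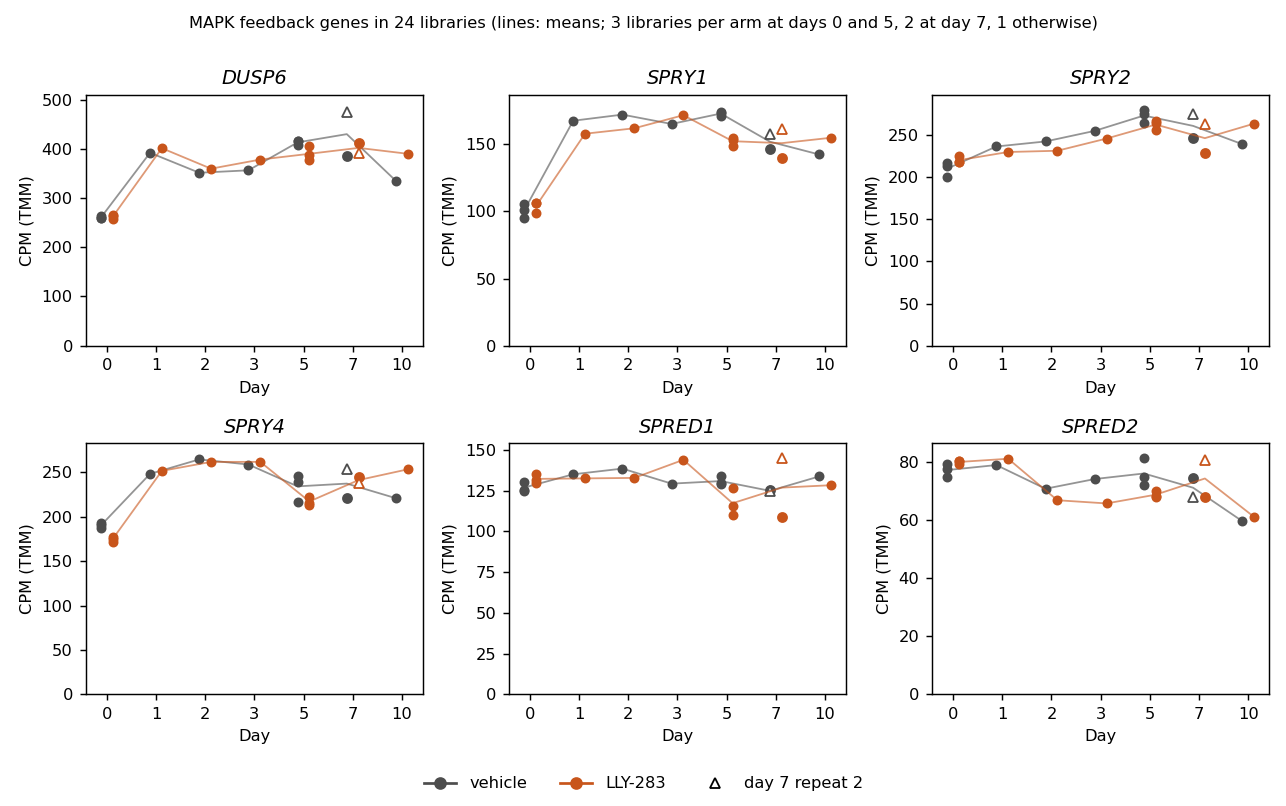
CPM (TMM-normalised, linear axes from 0) of the 6 feedback genes against day of treatment (days evenly spaced, not to scale). Points are libraries, grey for vehicle and orange for LLY-283, lines join the means of each group and day, and open triangles are the day 7 repeat 2 libraries. DUSP6, SPRY1, SPRY2 and SPRY4 lie above their day 0 range in all 18 later libraries, and SPRED1 and SPRED2 do not.

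On day 1 each of these genes already lay above its day 0 range, by unequal amounts. The mean over both libraries of day 1 was 1.59 times the day 0 mean for SPRY1, 1.52 times for DUSP6 and 1.37 times for SPRY4, but 1.08 times for SPRY2, which continued upwards to 273 ± 8.07 CPM (SD, n = 3) in vehicle at day 5. FGFR3 was at 1.75 times its day 0 mean on day 1. SPRED1 and SPRED2 were at 1.03 and 1.02 times theirs, and SPRED2 later lay below all day 0 libraries in 13 of 18 libraries. The share of counts from mitochondrial genes moved with the same step, from 4.54% to 5.40% at day 0 to 2.73% to 4.39% later. The sum of 16 fibroblast markers (11 of them above 1 CPM in the median library) was between 428 and 454 CPM at day 0 and between 455 and 750.0 CPM later. Its largest members were COL5A2, THY1 and POSTN, with medians of 214, 137 and 55.0 CPM over the 24 libraries. They did not move together: from day 0 to day 5 of vehicle the log2 fold change was 0.52 for THY1 and -1.35 for POSTN. The part of the mitochondrial share or the marker sum in these differences was not tested. Vehicle libraries show the step too, so time after seeding and time in vehicle or drug cannot be told apart in it.

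Upstream sequence is shown for DUSP6, SPRY1 and SPRY2, the genes of the step whose 250 bases before the RefSeq start site (GRCh38.p14) hold no annotated exon of the gene. Each is written 5′ to 3′ on the strand of the gene, and capitals mark CGGAAG or AGGAAG on either strand, the core words bound by ETS factors, which ERK can activate.
DUSP6, chr12:89352502-89352751, minus strand: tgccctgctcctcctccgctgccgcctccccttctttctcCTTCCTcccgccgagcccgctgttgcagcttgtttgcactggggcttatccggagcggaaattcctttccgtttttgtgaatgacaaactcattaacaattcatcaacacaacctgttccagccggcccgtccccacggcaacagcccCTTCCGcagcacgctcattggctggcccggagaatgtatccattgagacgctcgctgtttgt
SPRY1, chr4:123396545-123396794, plus strand: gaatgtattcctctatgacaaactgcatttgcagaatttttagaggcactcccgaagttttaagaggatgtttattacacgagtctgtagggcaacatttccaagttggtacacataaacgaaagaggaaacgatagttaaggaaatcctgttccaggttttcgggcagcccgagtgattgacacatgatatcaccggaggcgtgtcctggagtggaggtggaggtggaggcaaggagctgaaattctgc
SPRY2, chr13:80341127-80341376, minus strand: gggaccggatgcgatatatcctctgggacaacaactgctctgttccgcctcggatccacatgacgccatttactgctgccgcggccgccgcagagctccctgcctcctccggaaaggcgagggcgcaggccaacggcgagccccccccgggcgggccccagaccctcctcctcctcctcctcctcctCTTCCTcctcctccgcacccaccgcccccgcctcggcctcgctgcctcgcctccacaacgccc
DUSP6 held 2 such words, with first bases 210 and 62 bases before the start, SPRY2 held 1 at 63 bases, and SPRY1 held none. The words were present in 4 of the 9 genes that the RefSeq promoter table covers, the others being SPRED1 with 2 and SPRED2 with 3, while 41% of 27305 promoters of the same length had at least 1 and 12.2% at least 2.

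Between day 0 and day 5 of vehicle, with 3 libraries each, 6 of the 10 genes rose and 0 fell, where 38.9% of the 17106 genes tested were called, 22.2% higher and 16.7% lower. Levels at the 2 days did not overlap for 8 of the 10 genes, against 57% of all genes. The median log2 fold change was 0.33 over the 10 genes and -0.02 over all genes tested. DUSP6 rose by 0.65 (SE 0.035, adjusted p = 6.13e-15) and SPRY1 by 0.77 (SE 0.0415, adjusted p = 6.61e-15) on the log2 scale. SPRY2 rose by 0.36 and SPRY4 by 0.29. The other 2 genes that rose were low receptors. FGFR3 (ENSG00000068078, chr4:1793293-1808872, plus strand) was at 1.81, 2.13 and 2.15 CPM at day 0 and at 5.66, 5.26 and 5.25 CPM at day 5, a log2 fold change of 1.39 (SE 0.181, adjusted p = 2.58e-07). FGFR4 (ENSG00000160867, chr5:177086905-177098144, plus strand) was at 1.97, 2.18 and 2.81 CPM at day 0 and at 4.35, 4.01 and 4.66 CPM at day 5, a log2 fold change of 0.89 (SE 0.195, adjusted p = 0.000393). In both receptors every day 5 vehicle library was above every day 0 vehicle library. FGFR1, FGFR2, SPRED1 and SPRED2 were not called, with log2 fold changes of -0.11, -0.21, 0.03 and -0.04. FGFR1 was called lower over this interval when libraries were scaled by their totals alone (log2 fold change -0.16) or when only genes with at least 10 counts in every library were kept (-0.13).

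With LLY-283 over the same interval, 6 of the 10 genes rose and 2 fell, where 42.4% of 17341 genes were called, 22.9% higher and 19.5% lower, and levels did not overlap for 9 of the 10 genes, against 57.6% of all genes. The median was 0.30 over the 10 genes and 0.01 over all. The 2 comparisons have no library in common. Both cross between blocks of sample numbers, since days 0 to 3 were numbered in a block apart from days 5 to 10. What these blocks stand for is not stated. DUSP6, SPRY1, SPRY2, SPRY4 and FGFR3 rose in both groups, by 0.59, 0.57, 0.27, 0.33 and 1.69 with LLY-283. FGFR1 rose with LLY-283, by 0.17 (SE 0.0337, adjusted p = 0.000137). FGFR2 did not pass, with 0.36 (SE 0.115, adjusted p = 0.0119), nor did FGFR4, with -0.21 (SE 0.201, adjusted p = 0.399). SPRED2 fell by 0.20 (adjusted p = 9.24e-05) and SPRED1 fell by 0.16 (adjusted p = 0.00208), and the call for SPRED1 was lost without LLY-283 repeat 1 or 3 of day 0 or repeat 2 or 3 of day 5, with adjusted p of up to 0.04.

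**Figure D2:**
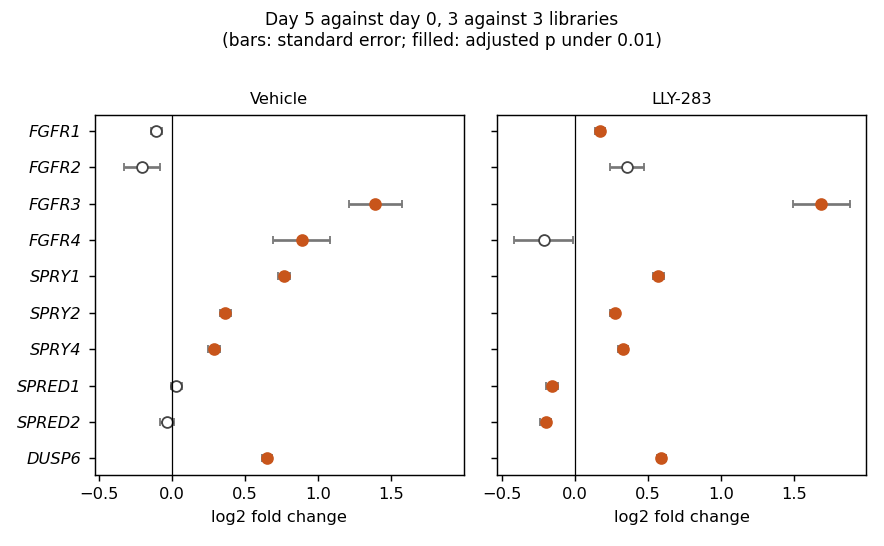
Log2 fold change of day 5 against day 0 in vehicle (left) and LLY-283 (right), 3 libraries against 3, for each of the 10 genes. Bars are standard errors and filled points passed an adjusted p under 0.01 in edgeR. FGFR4 lies at 0.89 in vehicle and at -0.21 in LLY-283, while DUSP6 and the SPRY genes lie to the right of 0 in both.

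At day 5, LLY-283 was compared directly with vehicle to ask which transcripts differ under PRMT5 inhibition at a dose chosen to limit cell death. FGFR1 was higher, and FGFR4 and SPRY1 were lower. These 3 of 10 genes were called, 1 higher and 2 lower, where 26.1% of 16491 genes were called, 12% higher and 14.1% lower. The groups did not overlap for 7 of the 10 genes, against 46.2% of all genes, and the median log2 fold change was -0.07 over the 10 and 0.02 over all. The share of the 10 called was thus close to that of all genes.

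FGFR1 (ENSG00000077782, on chromosome 8, minus strand) was at 108, 111 and 106 CPM in vehicle repeats 1 to 3 of day 5 and at 129, 128 and 128 CPM in the LLY-283 repeats. All 3 LLY-283 libraries were above all vehicle libraries, with a log2 fold change of 0.27 (SE 0.038, adjusted p = 2.01e-06). Exons of FGFR1 overlap LETM2 and another gene on the opposite strand, and whether the counting used strand is not given in the sources used here. FGFR4 was at 4.35, 4.01 and 4.66 CPM in vehicle and at 2.10, 2.42 and 2.40 CPM with LLY-283. The highest LLY-283 library was below the lowest vehicle library, with a log2 fold change of -0.88 (SE 0.187, adjusted p = 0.000449). The LLY-283 values were within the day 0 range of both groups, which ran from 1.97 to 3.00 CPM.

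FGFR2 (ENSG00000066468, chr10:121478332-121598458, minus strand) was at 6.47, 5.79 and 6.06 CPM in vehicle and at 7.88, 7.00 and 8.11 CPM with LLY-283 at day 5. The groups did not overlap, but the log2 fold change of 0.35 (SE 0.127) did not pass, with an adjusted p of 0.0304. FGFR3 was at 5.66, 5.26 and 5.25 CPM in vehicle and at 6.60, 5.11 and 7.41 CPM with LLY-283, which overlapped, with a log2 fold change of 0.27 (SE 0.149, adjusted p = 0.17). It was 0.40 without LLY-283 repeat 2 and 0.13 without LLY-283 repeat 3, and was called in neither case.

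**Figure D3:**
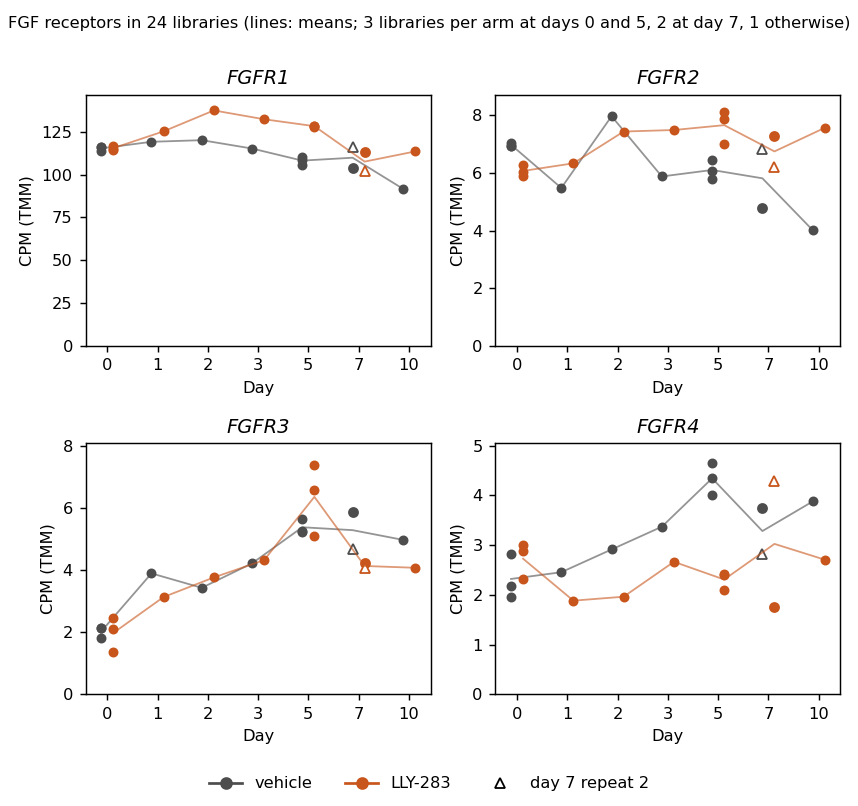
CPM (TMM-normalised, linear axes from 0) of the 4 FGF receptors against day of treatment (days evenly spaced, not to scale). Points are libraries, grey for vehicle and orange for LLY-283, lines join group means, and open triangles are the day 7 repeat 2 libraries. At day 5 the FGFR4 libraries lie between 4.01 and 4.66 CPM in vehicle and between 2.10 and 2.42 CPM with LLY-283, and at day 7 the triangles of FGFR1 and FGFR4 reverse the order of the filled points.

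Among the feedback genes at day 5, SPRY1 was at 171, 174 and 173 CPM in vehicle and at 155, 153 and 149 CPM with LLY-283. Every LLY-283 library was below every vehicle library, and the log2 fold change of -0.16 (SE 0.0357, adjusted p = 0.000854) corresponds to 0.896 of the vehicle level. SPRY1 with LLY-283 remained above the day 0 range of 94.7 to 106 CPM. SPRED1 (ENSG00000166068, chr15:38252836-38357249, plus strand) was at 129, 129 and 134 CPM in vehicle and at 127, 110.0 and 115 CPM with LLY-283, without overlap, with a log2 fold change of -0.13 (SE 0.0424, adjusted p = 0.0136). It was called without LLY-283 repeat 1 (-0.19, adjusted p = 0.00045). SPRED2 (ENSG00000198369, chr2:65310851-65432637, minus strand) was at 81.1, 74.9 and 71.8 CPM in vehicle and at 70.0, 68.1 and 67.8 CPM with LLY-283, also without overlap, with a log2 fold change of -0.12 (SE 0.0468, adjusted p = 0.0397).

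DUSP6 was at 415, 408 and 417 CPM in vehicle and at 405, 387 and 378 CPM with LLY-283 at day 5. The groups did not overlap, but the log2 fold change of -0.06 (SE 0.034, adjusted p = 0.185) did not pass. An exon of DUSP6 overlaps a gene on the opposite strand. SPRY2 was at 280.0, 275 and 264 CPM in vehicle and at 264, 256 and 267 CPM with LLY-283, which overlapped (log2 fold change -0.03, SE 0.0358, adjusted p = 0.509). SPRY4 was at 239, 246 and 217 CPM in vehicle and at 222, 213 and 216 CPM for LLY-283 (log2 fold change -0.08, SE 0.0402, adjusted p = 0.102). Without vehicle repeat 3, the low SPRY4 library, SPRY4 was called lower with LLY-283 (log2 fold change -0.14, adjusted p = 0.0077). At day 0 the LLY-283 group was already lower in SPRY4 by a similar amount (-0.13, without overlap, not called). The change of SPRY4 from day 0 to day 5 did not differ between the groups by the edgeR interaction (0.05, adjusted p = 0.533). Vehicle repeat 3 carried the highest level of the fibroblast gene COL1A1 (53.9 CPM against a median of 7.99 over the 24 libraries). It was also highest in FN1 (60.5 CPM against 3.09), COL1A2 (36.9 against 1.08), COL3A1 (9.39 against 0.218), COL6A3, DCN and MFAP5. It was not highest in the remaining fibroblast markers, among them COL5A2, THY1 and POSTN, the largest members of the list. Counts of COL1A1 and FN1 were also high on day 2 with LLY-283 (610 and 504), where SPRY4 was at 261 CPM. The first vehicle repeat of day 7 had 567 and 545, with SPRY4 at 221 CPM. Counts of COL1A2 and COL3A1 were high there too (316 and 94), and on day 2 with LLY-283 (313 and 106). Whether these genes bear on the SPRY4 call was not tested. The summed fibroblast markers were between 471 and 652 CPM in vehicle and between 612 and 628 CPM with LLY-283 at day 5. The day 5 groups did not overlap in the mitochondrial share, which was 2.73% to 3.07% in vehicle and 3.21% to 3.88% with LLY-283, nor in the sum of 10 glioma precursor markers, at 4879 to 4993 CPM in vehicle and 4626 to 4685 CPM with LLY-283. The part of these 3 measures in the day 5 values of the 10 genes was not tested. The calls for FGFR1, FGFR4 and SPRY1 were kept without any single library of day 5.

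**Figure D4:**
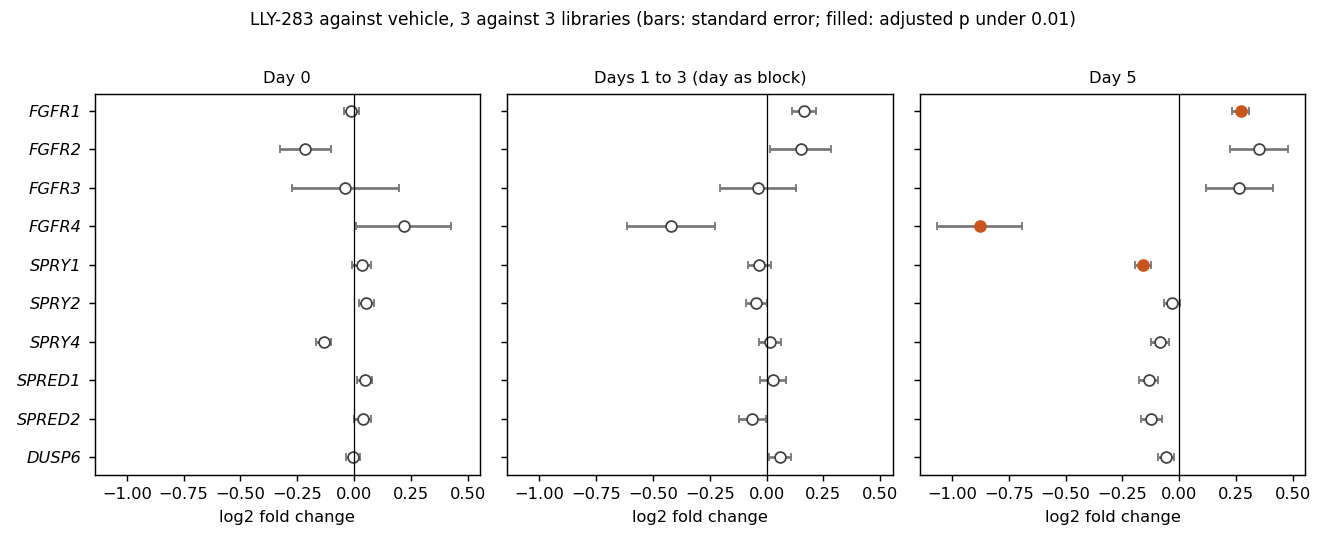
Log2 fold change of LLY-283 against vehicle (horizontal axis) for each of the 10 genes at day 0, over days 1 to 3 with day as a block, and at day 5, with 3 libraries per group in each panel. Bars are standard errors and filled points passed an adjusted p under 0.01 in edgeR. FGFR1, FGFR4 and SPRY1 are filled at day 5, and no gene is filled in the other panels.

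The change from day 0 to day 5 was tested for a difference between treatment groups with an interaction term over the 12 libraries of these days. It was called for FGFR1, FGFR2 and FGFR4, 3 of 10 genes with 2 higher and 1 lower, where 14.9% of 18369 genes were called, 6.78% higher and 8.15% lower. FGFR1 changed by 0.29 more with LLY-283 than with vehicle on the log2 scale (SE 0.0488, adjusted p = 7.6e-05). FGFR4 had an interaction of -1.09 (SE 0.266, adjusted p = 0.00295). The interaction of FGFR2 was 0.57 (SE 0.16, adjusted p = 0.00911), with day 0 levels of 7.05, 6.94 and 6.96 CPM in the vehicle libraries and 5.90, 6.28 and 6.04 CPM in the LLY-283 libraries. These day 0 groups did not overlap before any treatment time had passed, and the FGFR2 call was lost when any library other than LLY-283 day 5 repeat 2 was left out, with adjusted p of up to 0.031. The FGFR4 call was lost without LLY-283 day 0 repeat 3 (-1.06, adjusted p = 0.01). SPRY1 did not pass (-0.19, adjusted p = 0.0151), though it did without vehicle day 0 repeat 1 (-0.25, adjusted p = 0.0013) or LLY-283 day 0 repeat 2 (-0.24), and also under DESeq2, with its size factors in edgeR, with at least 10 counts in every library and in the fit of 18 libraries, with adjusted p between 0.0059 and 0.009. SPRED1 (-0.18, adjusted p = 0.0235) passed without LLY-283 day 5 repeat 1 (-0.23, adjusted p = 0.0014). DUSP6, SPRY2, SPRY4, SPRED2 and FGFR3 did not pass, with interactions of -0.05, -0.08, 0.05, -0.16 and 0.30. That of FGFR3 ran from 0.09 without LLY-283 day 0 repeat 2 to 0.49 without LLY-283 day 0 repeat 3.

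At day 0 itself 0 of the 10 genes were called by edgeR, and 0 by DESeq2, where 0.0169% of 17780 genes were called. SPRY4 was the gene of the 10 at an unadjusted p under 0.05, with 187, 193 and 190.1 CPM in vehicle and 172, 175 and 177 CPM in the LLY-283 group (log2 fold change -0.13, adjusted p = 0.264). Of all 17780 genes, 1012 had an unadjusted p under 0.05. SPRY4, FGFR2 and SPRY2 had groups that did not overlap at day 0, against 11.9% of all genes.

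On days 1, 2 and 3, with 1 library per group and day, FGFR1 was at 119, 120.2 and 115 CPM in vehicle and at 125, 138 and 132 CPM with LLY-283. The LLY-283 library was the higher on each day. FGFR4 was at 2.46, 2.91 and 3.37 CPM in vehicle and at 1.88, 1.96 and 2.66 CPM with LLY-283, the LLY-283 library being the lower on each day. With day as a block, FGFR1 had a log2 fold change of 0.16 (SE 0.0523, adjusted p = 0.191) and FGFR4 one of -0.42 (SE 0.194, adjusted p = 0.323). Of the 10 genes 0 were called by edgeR, where 0.0104% of 19179 genes were, 0.00521% in each direction. FGFR1 was the 1 gene of the 10 below an unadjusted p of 0.05, where 3016 of the 19179 genes were. DESeq2 called 0 of the 10. When the 18 libraries of days 0 to 5 shared a fit, an alternative added after the values were seen, FGFR1 was called over days 1 to 3 (0.17, adjusted p = 0.0022). The share of all genes called rose as well in that fit, to 4.52% of 20642 genes.

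At day 10, with 1 library per group, FGFR1 stood at 91.8 CPM in vehicle against 114 CPM with LLY-283, and FGFR4 at 3.88 against 2.71 CPM. FGFR2 was at 4.01 CPM in vehicle, its lowest value of the series, and at 7.57 CPM with LLY-283. DUSP6 was at 335 CPM in vehicle, its lowest value after day 0, and at 390.1 CPM with LLY-283. Over days 1, 2, 3 and 10, FGFR1 and DUSP6 were higher with LLY-283 on 4 of 4 days, and FGFR4 was lower on 4 of 4. The rest of the 10 genes went both ways over these days, and the share over all genes is not given. DUSP6 differed by 0.034 on the log2 scale on days 1 and 2, 0.086 on day 3 and 0.22 on day 10. In all 3 libraries of day 5, DUSP6 was lower with LLY-283, without being called. With single libraries, days 1, 2, 3 and 10 were not tested alone.

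At day 7, 0 of the 10 genes were called by label, 0 had an unadjusted p below 0.05 and 0 were called by DESeq2, where edgeR called 0% of 16826 genes, of which 236 had an unadjusted p below 0.05. FGFR4 was at 3.74 CPM in the library labelled vehicle repeat 1 and 1.75 CPM in that labelled LLY-283 repeat 1, but at 2.82 and 4.29 CPM in those labelled vehicle and LLY-283 repeat 2. FGFR1 was at 104 and 113 CPM in the repeat 1 libraries and at 116 and 102 CPM in the repeat 2 libraries, in the same order. The order of the groups thus turned between repeats for both genes. Leaving out the repeat 2 libraries left 1 library per group at day 7, fitted together with days 0 to 5. In that fit FGFR4 had a log2 fold change of -1.09 and FGFR1 one of 0.13. The repeat 2 libraries were set apart for their likeness to the other group, so these values are no separate check on day 5. FGFR3 was the gene of the 10 whose groups did not overlap by label, against 25.7% of all genes, with 5.89 and 4.70 CPM in vehicle and 4.22 and 4.06 CPM with LLY-283. In a time course fit of 22 libraries, without day 10, the treatment by day interaction was called for 0 of the 10 genes. Of all 20756 genes, 0.0289% were called. FGFR1 (adjusted p = 0.19) was the 1 gene of the 10 below an unadjusted p of 0.05, where 3166 of all genes were. DESeq2 called 0 of the 10. FGFR1 was called without the day 7 libraries (adjusted p = 0.0031), where 9.61% of 20642 genes were called. FGFR1 was also called without LLY-283 day 7 repeat 1, a fit in which the share of all genes called rose as well. That fit left 1 library in the group, repeat 2, which resembled the other treatment group.

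The other genes of the pathway were read at day 5 from lists written from general knowledge, in the order from ligand to target. Over all 16491 genes tested at day 5, 26.1% were called, 12% higher and 14.1% lower. Of 22 FGF ligand genes 8 passed the filter, 2 were called higher with LLY-283 and 0 lower. These were FGF12 (1.34 ± 0.294 against 2.92 ± 0.363 CPM, SD, n = 3, log2 fold change 1.14) and FGF14 (17.8 ± 1.92 against 23.2 ± 0.873 CPM, 0.41), both of the intracellular FGF group, whose proteins bind sodium channels and are not secreted ligands. Of 14 coreceptors and receptor regulators 12 were tested, 6 were called higher and 0 lower, with a list median of 0.19 against 0.02 over all genes. The heparan sulphate proteoglycan gene GPC1 stood at 210.3 ± 5.73 CPM in vehicle against 284 ± 6.53 CPM after LLY-283 (log2 fold change 0.46, adjusted p = 1.01e-10). SULF2, which removes sulphate groups from heparan sulphate, was at 20.8 ± 1.29 and 35.0 ± 0.117 CPM (0.78, adjusted p = 2.6e-10). SDC3, another such proteoglycan, differed by 0.34, and FLRT3, a membrane protein that binds FGFRs, by 0.34.

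Of the 24 adaptors and cascade genes at day 5, 3 were called higher and 6 lower, with a median of -0.03. For this list and the next 2, the shares over all genes were again 12% called higher and 14.1% lower. MAP2K1, which encodes the ERK kinase MEK1, stood at 147 ± 2.69 CPM in vehicle against 116 ± 6.88 CPM after LLY-283 (log2 fold change -0.32, adjusted p = 4.13e-07). NRAS had a log2 fold change of -0.22, and PTPN11, the phosphatase SHP2, one of -0.19. The scaffold KSR1 went the other way, with 17.1 ± 0.229 and 23.1 ± 1.47 CPM (0.46, adjusted p = 2.03e-05). Among 14 other genes known to be induced by ERK, 7 were called higher and 2 lower, with a median of 0.20. PHLDA1 (0.39), the phosphatase gene DUSP4 (0.47), the cyclin gene CCND1 (0.27) and the ephrin receptor gene EPHA4 (0.58) were higher with LLY-283, and DUSP5 and ETV4 were the 2 that were lower. In the interaction over days 0 and 5, EGR1 (0.05), ETV5 (0.08) and ETV4 (-0.18) were not called. The other called genes of this list were, where 14.9% of all genes were. EGR1 was higher in the LLY-283 group already at day 0 (0.20, without overlap, not called). Of 7 other MAPK phosphatases, DUSP2 alone was called (12.3 ± 0.319 against 9.36 ± 0.574 CPM, -0.38, adjusted p = 0.0039).

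**Figure D5:**
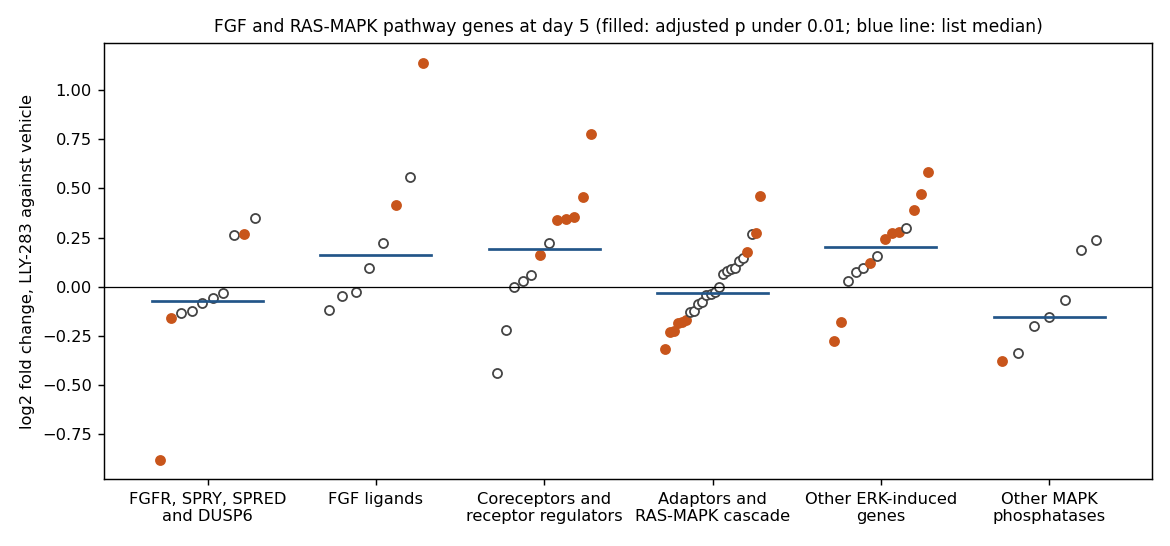
Log2 fold change of LLY-283 against vehicle at day 5 (vertical axis) for each tested gene of 6 lists (columns). Each point is a gene, filled where it passed an adjusted p under 0.01 in edgeR, and the horizontal line of each column is the list median. The 6 called coreceptors and receptor regulators lie above 0, and the list medians run from -0.15 for other MAPK phosphatases to 0.20 for other ERK-induced genes. Over all genes tested, 26.1% were called.

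The same lists were read from day 0 to day 5 beside the feedback genes, where 38.9% of all genes were called in vehicle and 42.4% with LLY-283. Of the 8 FGF ligand genes tested, 0 rose and 2 fell in vehicle (FGF13 and FGF14), and 2 rose and 0 fell with LLY-283. Of the 12 coreceptors and receptor regulators, 4 rose and 4 fell in vehicle, among the latter FLRT2 (log2 fold change -1.55) and SULF2 (-0.55), and 7 rose and 3 fell with LLY-283. Of the 24 adaptors and cascade genes, 12 rose and 0 fell in vehicle, with a median of 0.21, and 12 rose and 4 fell with LLY-283. Of the 14 other ERK-induced genes 5 rose and 1 fell in vehicle, with a median of 0.05, and 8 rose and 3 fell with LLY-283. Of the 7 other MAPK phosphatases 4 rose and 1 fell in vehicle and 4 rose and 2 fell with LLY-283. DUSP6, SPRY1, SPRY2 and SPRY4 lay at or above the median of each of the cascade, ERK-induced and phosphatase lists in vehicle, except SPRY4, whose 0.29 was below the 0.32 of the phosphatases. These genes had been singled out by their rise from day 0, so their place against the medians was largely set by that choice. The feedback genes SPRED1 (0.03) and SPRED2 (-0.04) lay below the medians of all 3 lists.

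For each of the 10 genes, the 3 genes whose log2 CPM followed it most closely over the 24 libraries were taken, among 20875 genes searched. They are listed where Pearson's r was at least 0.9, so further genes may lie above that level. The libraries share days and treatment, so these values describe shared time courses. SPRY1 was followed by DCP2 (r = 0.971), NEK2 (0.968) and DLGAP5 (0.967), and DUSP6 by GNPAT (0.969), RNF10 (0.959) and TOB2 (0.956). FGFR3 was followed by HES6 (0.950), PREX1 (0.934) and PSRC1 (0.933), and SPRY2 by CTDSP2 (0.936), VPS4A (0.932) and FAM3C (0.922). SPRY4 was followed by HSP90B1 (0.932), SPRED2 by MED17 (0.908), CERK (0.907) and FKBP15 (0.907), and FGFR1 by ITGA7 (0.905). FGFR2, FGFR4 and SPRED1 had no gene at this level. Within the 10 genes, DUSP6 and SPRY1 had an r of 0.899 and SPRY1 and SPRY4 one of 0.88, whereas FGFR1 had an r of 0.737 with FGFR2 and of -0.679 with FGFR4.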

How the data were processed

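RNA of HSJD-DIPG-007 cells was sequenced in 24 libraries (poly(A) RNA, directional kit, paired-end). The authors assigned reads to transcripts with kallisto on hg38 and deposited estimated counts per gene, as whole numbers without normalisation. The kallisto version, the annotation and the strand setting are not given in the sources used here. Of 58676 gene rows, 58207 were matched to a GENCODE symbol on GRCh38. Library totals of 13835205 to 23190369 counts set the precision.

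Groups came from the labels. Counts were tested in R 4.3.3 with edgeR 4.0.16, using TMM scaling, its low-count filter by group and day, and quasi-likelihood tests in robust mode, adjusted over all genes by Benjamini-Hochberg, with calls at an adjusted p under 0.01. Standard errors are the log2 fold change over the square root of F. Days 0, 5 and 7 were fitted within their own libraries, days 1 to 3 with day as a block, and interactions over days 0 and 5 and over days 0 to 7. The 4 called genes of smallest p at day 5 in each other list were named, and DUSP5, ETV4, ETV5, EGR1, FGF13 and FLRT2 were added after their values were seen. The 10 genes, lists and tests were chosen with earlier results of these data known. Alternatives were DESeq2 1.42.0 or only its size factors, scaling by library totals, dropping the filter, a minimum of 10 counts per library, a replicate block, shared fits, an adjusted p under 0.05 and leaving out each library, where a lone library was assumed to vary like the others. Tests were checked on simulated data. Promoters came from RefSeq on GRCh38.p14.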

Additional observations from a re-analysis of the deposited data

Results flagged for a closer look

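Of the FGF receptors, 3 had a change from day 0 to day 5 that differed between LLY-283 and vehicle, by the interaction term of edgeR over the 12 libraries of these days. Of all 18369 genes tested, 14.9% were called. FGFR1 had an interaction of 0.285 on the log2 scale (adjusted p = 7.6e-05), higher with LLY-283. FGFR4 had one of -1.094 (adjusted p = 0.00295), lower with LLY-283, from 32 to 74 counts per library. FGFR2 had one of 0.570 (adjusted p = 0.00911), higher with LLY-283, where its day 0 groups already lay apart. Of 20 alternatives, the call was lost in 17 for FGFR2, 3 for FGFR4 and 1 for FGFR1. With all 22 libraries in a shared fit, 0 of the 10 genes were called, where 0.246% of all genes were.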

How the results depend on the processing

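No called gene changed direction under any alternative. At day 5, 3 of the 10 genes were called in the main comparison, 1 (FGFR1) with all 22 libraries in a shared fit, where FGFR4 reached an adjusted p of 0.013 and SPRY1 0.023, and 6 at an adjusted p under 0.05. The share of all genes called moved as well, from 26.1% to 9.84% in the shared fit and 36.7% at the looser threshold. Leaving out single libraries gave 3 to 4. For the interaction over days 0 and 5, 3 were called, 0 with all 22 libraries in a shared fit, where the share of all genes called went from 14.9% to 0.246%, 5 at an adjusted p under 0.05 (24.2% of all genes), and 1 to 3 without single libraries, the 1 (FGFR1) being without LLY-283 day 0 repeat 3. The FGFR2 interaction was also lost under DESeq2 (adjusted p = 0.072), its size factors (0.012) and no filter (0.018), and that of FGFR4 under DESeq2 (0.011). For days 1 to 3, 0 were called, and 1 in the fit of 18 libraries, which was added after the values were seen. The share of all genes called went from 0.0104% to 4.52% in that fit. For the interaction over days 0 to 7, 0 were called, 1 without the day 7 libraries, and 0 to 1 without single libraries. The share of all genes called went from 0.0289% to 9.61% without the day 7 libraries. Between days 0 and 5, leaving out single libraries gave 6 in vehicle and 7 to 8 with LLY-283, where all 22 libraries in a shared fit lost SPRED1 (adjusted p = 0.074) and FGFR1 (0.018). At days 0 and 7 it gave 0. Deviations of same-numbered libraries correlated between -0.05 and 0.0532. With 2 or 3 libraries per group such deviations are tied to each other, so these values cannot decide whether the repeat numbers pair the libraries. With the replicate block, 4 genes were called at day 5 (SPRED1 added, adjusted p = 0.0097) and 2 for the interaction over days 0 and 5 (without FGFR2, adjusted p = 0.013). The low counts of FGFR2, FGFR3 and FGFR4 limit what can be seen in them. Technical or absent repeats of a single line limit all p-values, and the cause of the lost calls was not tested.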
